A study of Mus musculus with 20 samples.

Results

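The stretch of mouse chromosome 16 that runs from Mis18a to Runx1 is present in 3 copies in Dp1Tyb mice, and the genes on it were followed here in whole embryonic hearts at E13.5. Every gene of the deposited table whose Ensembl identifier lies in this stretch by GENCODE gene order was taken, whatever its type, apart from the interferon and IL-10 receptor genes Ifnar1, Ifnar2, Ifngr2 and Il10rb and the calcineurin regulator Rcan1. This gave 47 of the 48795 genes in the table, of which 27 are protein-coding and 20 are long noncoding RNA genes, small RNA genes, pseudogenes or other noncoding entries. RNA was measured in 10 WT hearts, 5 Dp1Tyb hearts and 5 hearts labelled Dp1TybDyrk1a+/+/-. Dp1Tyb mice carry a tandem duplication from Lipi to Zbtb21, which spans the whole stretch, and WT hearts carry neither this duplication nor a mutant allele. The hearts labelled Dp1TybDyrk1a+/+/- carry the same duplication together with the Dyrk1atm1Mla allele, which lacks exons 7 and 8 of Dyrk1a, so that 2 of the 3 Dyrk1a copies are functional. Per the study's methods, all mice were kept on C57BL/6J, and the strain with both alleles descends from a single pup in which a crossover had joined them on one chromosome. It was bred apart from Dp1Tyb mice, so the copy number of functional Dyrk1a and other differences between the strains cannot be told apart. The WT hearts are littermates of both strains, 5 of each, but the labels do not say which heart belongs to which, so all 10 served as controls in both comparisons and neither was made within litters. Dyrk1a counts do not check the label, because the deletion removes only part of the gene. WT hearts had a Dyrk1a log2 level of 11.37 ± 0.0441 (SD, n = 10). The level was 11.69 ± 0.0401 (SD, n = 5) with the duplication alone and 11.76 ± 0.0561 (SD, n = 5) in the hearts labelled Dp1TybDyrk1a+/+/-.

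The stretch is orthologous to a part of human chromosome 21, and a gene present in 3 copies instead of 2 is expected to give up to 1.5 times as much RNA, or 0.585 on the log2 scale, where nothing else adjusts its level. The genes have unrelated functions. They include subunits of the ATP synthase and of the mitochondrial ribosome, a centromere loading factor, a replication factor, a purine synthesis enzyme, splicing and ribosome biogenesis factors, endocytic proteins, accessory subunits of cardiac potassium channels, an inositol transporter and the haematopoietic transcription factor Runx1.

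Cardiac tissue was plain in all hearts, with a summed log2 level of 7 cardiomyocyte markers between 18.5 and 18.95. Of 56 tested markers of cardiomyocytes and of 10 other cell or tissue types, 0 differed in any of the 3 comparisons between genotypes (limma, Benjamini-Hochberg adjusted P-value under 0.05). An unadjusted P-value under 0.05 was found for 4, 5 and 1 of them, compared to 2382, 1475 and 2838 of all 15304 genes tested. In whole hearts, fewer cells of a type and less RNA per cell cannot be told apart. The deposited values are log2 normalized counts whose spread between hearts shrinks at low levels, from a median SD of 0.0679 where the mean count lay between 100 and 1000 to 0.0474 between 10 and 100 and 0.0148 between 1 and 10, and fold changes of weakly expressed genes are understated on this scale. One heart, replicate 2 of those labelled Dp1TybDyrk1a+/+/-, stood apart from the rest. Its median absolute deviation from its group over all tested genes was 0.112, compared to 0.0298 to 0.0661 in the other 19 hearts. Where it moved a value of one of these genes most, the value without it is given beside it.

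Of the 47 genes, 24 averaged 10 or more normalized counts across all 20 hearts and were tested. These were 23 protein-coding genes and the long noncoding RNA A930006K02Rik. The other 23 genes were too low to test, and 7 of these, among them the oligodendrocyte factor Olig2, were listed at 0 in every heart. The remaining 16 had mean normalized counts from 0.202 to 6.5 and included the protein-coding genes Olig1, Epcip and Fam243. Genes just inside the limit were A930006K02Rik at 14 and Kcne2 at 16.8, and just outside it were the noncoding RNA gene Gm10785 at 6.5 and the pseudogene H3f3a-ps2 at 3.93. Per kilobase of merged exons, the mean log2 level over the 20 hearts was highest for Atp5po at 10.52 and Son at 9.53. Gart at 7.84, Kcne1 at 7.79, Paxbp1 at 7.35 and Mrps6 at 7.31 came next, and Runx1 at 3.0, Eva1c at 2.6 and A930006K02Rik at 2.28 were the lowest. The order depended on the length used. With the longest transcript in place of merged exons, Kcne2 was the lowest at 3.25, with Runx1 at 3.87, and Mrps6 at 8.34 passed Kcne1 at 7.98.

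In GRCm38.p6 the stretch covers chr16:90719312-92826074, or 2.11 Mb, and ends 1.74 Mb before Dyrk1a. RefSeq gives a start for 20 of the 24 tested genes. The 250 bases before each of their 23 starts were set beside those of all starts in the RefSeq table. These 23 starts are of genes that passed the filter on low counts, whereas the table was not filtered by expression. The sets are not matched for expression, so the shares given here and below do not single out this stretch. The ratio of observed to expected CpG dinucleotides had a median of 0.91 over these upstream sequences and 0.373 over all 32851 starts in the RefSeq table, and it was above 0.6 in 19 of the 23 and in 34% of all. Whether CpG content goes with the change in RNA was not tested. The upstream sequence of Tmem50b, an endoplasmic reticulum membrane protein gene, is shown as a CpG-rich example. That of the downstream start of Kcne2, a potassium channel subunit gene, is shown as a CpG-poor example. They lie at chr16:91597681-91597930 on the minus strand and chr16:92295366-92295615 on the plus strand, with a ratio of 0.91 and 28 CpG dinucleotides in the former and a ratio of 0.07 and 1 CpG dinucleotide in the latter. The other start of Kcne2 had a ratio of 0.54. CpG dinucleotides are in capitals.
Tmem50b: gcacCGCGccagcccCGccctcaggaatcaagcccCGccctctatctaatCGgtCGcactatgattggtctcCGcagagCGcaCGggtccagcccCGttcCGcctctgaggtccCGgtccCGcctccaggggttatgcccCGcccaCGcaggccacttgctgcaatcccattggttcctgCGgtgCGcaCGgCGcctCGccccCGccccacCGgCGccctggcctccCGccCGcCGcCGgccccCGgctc
Kcne2: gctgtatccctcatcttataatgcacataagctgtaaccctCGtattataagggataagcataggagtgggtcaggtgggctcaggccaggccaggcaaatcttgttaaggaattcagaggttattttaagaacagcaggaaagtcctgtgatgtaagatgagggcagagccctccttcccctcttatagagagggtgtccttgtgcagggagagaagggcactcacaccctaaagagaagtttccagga

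The GC box GGGCGG, searched on both strands, lay upstream of 12 of the 23 starts compared to 32.7% of all starts in the table. Mrps6, a subunit of the mitochondrial ribosome, and Slc5a3, the sodium and myo-inositol cotransporter, start 14 bases apart on the same strand and so share nearly all of this sequence. The bases before Mrps6, chr16:92058086-92058335 on the plus strand, hold 4 GC boxes in capitals, the first and second of which overlap by 1 base.
Mrps6: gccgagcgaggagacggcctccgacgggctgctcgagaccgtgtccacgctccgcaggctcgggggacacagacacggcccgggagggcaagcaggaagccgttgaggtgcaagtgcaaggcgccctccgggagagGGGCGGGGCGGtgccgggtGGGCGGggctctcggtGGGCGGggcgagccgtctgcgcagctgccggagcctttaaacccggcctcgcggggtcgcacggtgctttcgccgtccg

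The NRF1 motif, searched as its palindrome on both strands, was found upstream of 2 of the 23 starts compared to 0.782% of all, those of Mis18a and Paxbp1 on the minus strand at chr16:90727372-90727621 and chr16:91044380-91044629, where it is in capitals. The ETS motif CCGGAAGT lay upstream of 2 starts, those of Cfap298 and A930006K02Rik (2.88% of all), the CCAAT box ATTGG upstream of 6 starts of 5 genes (33.8% of all), and the TATA box TATAAA upstream of 0 starts (12.4% of all). These are matches of letters and not measured binding sites.
Mis18a: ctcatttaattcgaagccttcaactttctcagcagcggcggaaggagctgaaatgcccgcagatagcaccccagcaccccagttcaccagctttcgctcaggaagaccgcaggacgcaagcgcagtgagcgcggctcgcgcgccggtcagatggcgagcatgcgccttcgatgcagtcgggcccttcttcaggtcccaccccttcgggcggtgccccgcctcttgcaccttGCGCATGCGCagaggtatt
Paxbp1: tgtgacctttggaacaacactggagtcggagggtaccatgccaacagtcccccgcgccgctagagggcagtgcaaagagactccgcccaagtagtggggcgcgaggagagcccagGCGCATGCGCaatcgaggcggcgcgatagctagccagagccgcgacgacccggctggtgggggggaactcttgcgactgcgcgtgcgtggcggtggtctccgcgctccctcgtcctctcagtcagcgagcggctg

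To see how far an extra copy raised these genes, Dp1Tyb hearts were compared with WT hearts. The log2 fold change was above 0 for all 24 tested genes, with 20 genes past the threshold as increased and 0 as decreased (limma, adjusted P-value by Benjamini-Hochberg under 0.05), compared to 1.81% and 1.27% of the 15304 genes tested. At an unadjusted P-value under 0.05, 0 of the 24 were decreased. The median log2 fold change was 0.28, or 1.21-fold, and the range was 0.03 to 0.41. For 17 genes, every Dp1Tyb heart lay above every WT heart, which held for 1.51% of all genes tested. Of all 95 tested genes of the whole duplication, 72 were increased with a median of 0.30, and over all 15304 genes the median was 0.00. The 95% confidence interval of the log2 fold change lay below 0.585 for all 24 genes. Because the transformation behind the deposited values is not named and their spread is shrunken, this describes the deposited scale and does not test for a 1.5-fold change in RNA at any level of expression. Changes were larger among the genes of higher level. The 19 genes that averaged 100 or more normalized counts had a median of 0.30, and the 5 others had a median of 0.10. Across the 24 genes, Pearson's r of the log2 fold change with the mean log2 level was 0.83 and Spearman's rho 0.836. The points share the same hearts and the same shrinkage, and genes are not independent replicates.

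Hearts labelled Dp1TybDyrk1a+/+/-, which were compared with the same 10 WT hearts, gave 17 increased and 0 decreased genes of the 24, compared to 0.627% and 0.0849% of all genes tested, and 0 were decreased at an unadjusted P-value under 0.05. The median log2 fold change was 0.30, or 1.23-fold, with a range from -0.05 to 0.46. For 15 genes these 5 hearts all lay above every WT heart, as did 0.562% of all genes tested. Without replicate 2 the median was 0.30 and 16 genes were increased, with Slc5a3 no longer past the threshold (adjusted P = 0.0744). The 16 genes increased in both comparisons were joined by Mrap, Clic6, Eva1c and Gm21970 in Dp1Tyb hearts and by Kcne1 in those labelled Dp1TybDyrk1a+/+/-. Runx1, Kcne2 and A930006K02Rik were past the threshold in neither.

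**Figure D1:**
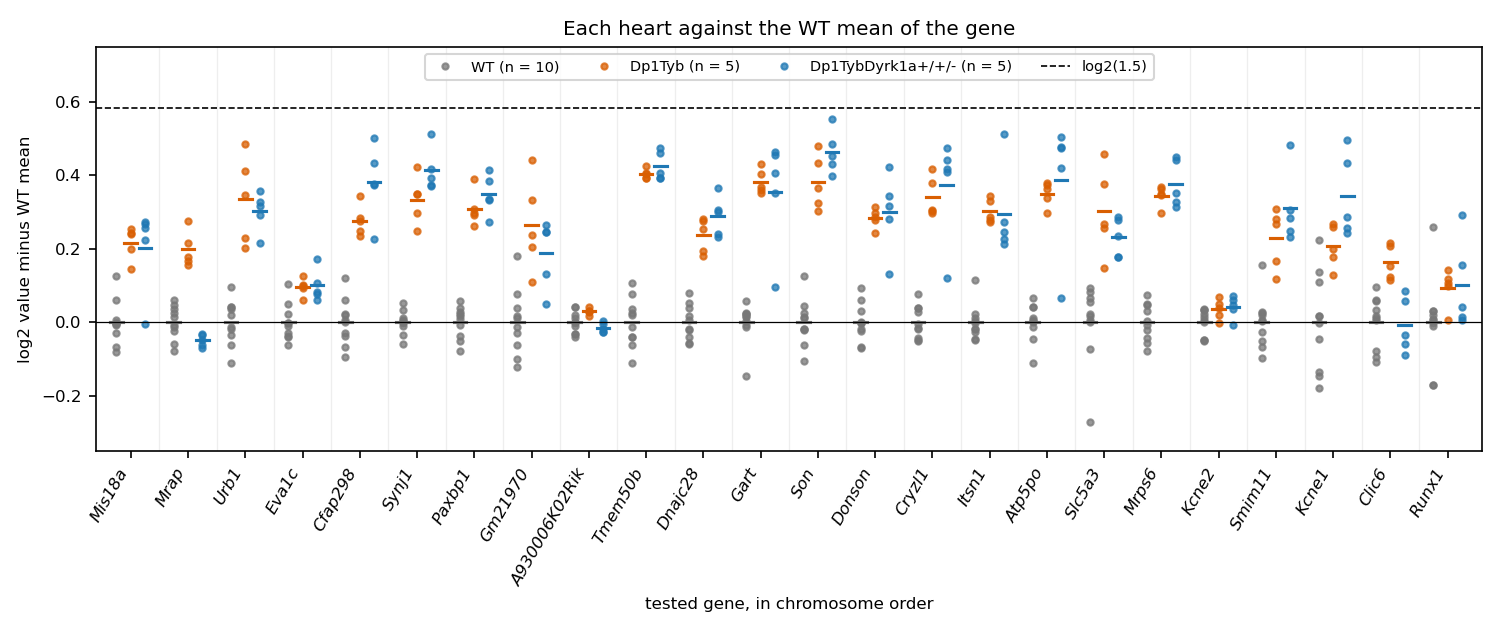
Log2 normalized count of each heart minus the WT mean of the gene, for the 24 tested genes in chromosome order. Points are hearts (WT, n = 10; Dp1Tyb, n = 5; Dp1TybDyrk1a+/+/-, n = 5), short bars are group means and the dashed line is log2(1.5), 0.585. Most genes were higher in both duplication groups, and at Mrap and Clic6 the hearts labelled Dp1TybDyrk1a+/+/- lay among the WT hearts.

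**Figure D2:**
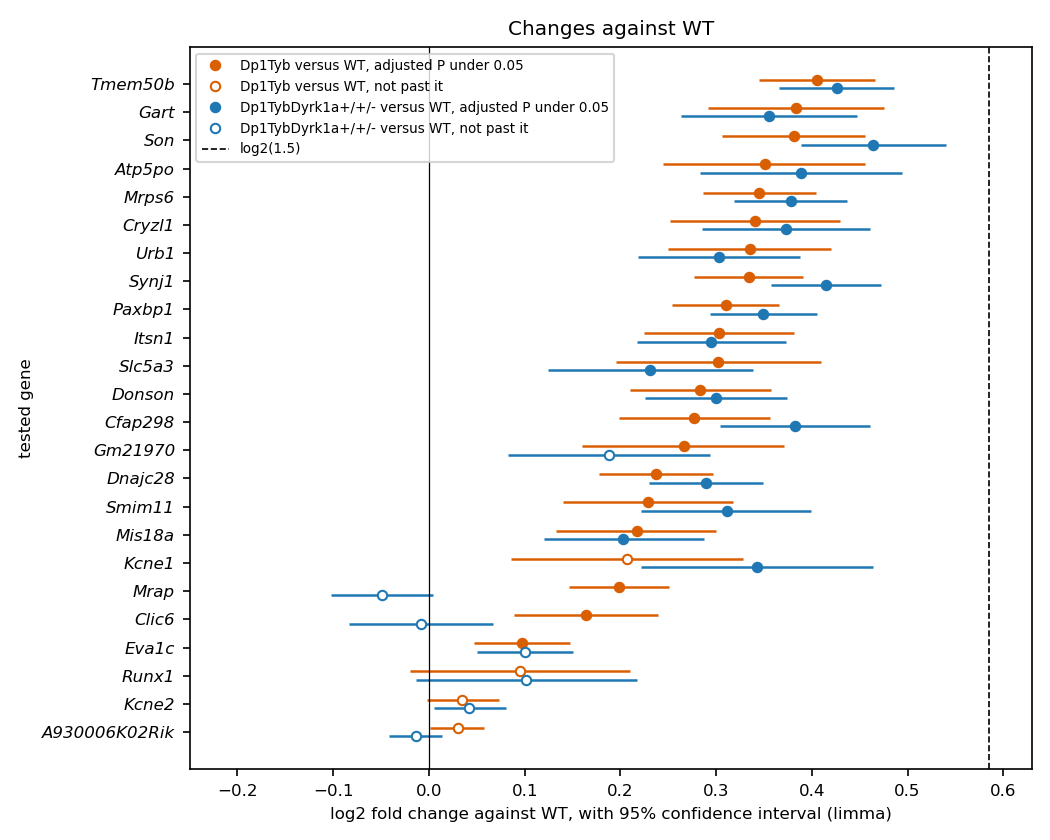
Log2 fold change against WT of each tested gene with its 95% confidence interval from limma, ordered by the change in Dp1Tyb hearts. Filled points had an adjusted P-value under 0.05, and the dashed line is log2(1.5), 0.585, which no interval reached on the deposited scale.

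Mrap and Clic6 differed between the 2 duplication genotypes in the main fit of all 20 hearts (limma, Benjamini-Hochberg adjusted P-value under 0.05). In that fit they were the only ones to do so among the 24 genes, and among all 95 tested genes of the duplication. Of all genes tested, 0.425% were higher in Dp1Tyb and 0.738% lower. With array weights 4 of the 24 genes passed, Cfap298 among them. Genes not called were not shown to be equal, and among those from Lipi to Hunk the differences ran from -0.147 to 0.385. Mrap encodes an accessory protein that carries the ACTH receptor MC2R to the cell surface. Its log2 values in the 5 Dp1Tyb hearts were 6.94, 6.88, 6.999, 6.89 and 6.90, and in the 10 WT hearts they ran from 6.64 through a median of 6.72 to 6.78. In the 5 hearts labelled Dp1TybDyrk1a+/+/- they were 6.69, 6.67, 6.66, 6.65 and 6.69. All Dp1Tyb hearts thus lay above all others, while the hearts with the Dyrk1a mutant allele lay within the WT range. Compared to WT, the log2 fold change was 0.20 (SE 0.0253, adjusted P = 3.24e-05) in Dp1Tyb and -0.05 (95% confidence interval -0.10 to 0.00, adjusted P = 0.555) in those labelled Dp1TybDyrk1a+/+/-. Between the duplication genotypes it was 0.25 (SE 0.0292, adjusted P = 0.000523). Each of the 5 Dp1Tyb hearts was above each of the other 5, which held for 2.1% of all genes tested. A two-sided exact permutation test gave p = 0.00794, the lowest that its 252 splits of 5 against 5 hearts allow. It used the same hearts as the limma call and is not further support for it. Sequencing lanes 3, 6 and 7 held 1 to 4 hearts of a genotype each. Within them the Mrap difference between the duplication genotypes was 0.20, 0.25 and 0.275. The difference from WT of the hearts labelled Dp1TybDyrk1a+/+/- was -0.03, -0.02 and -0.09. Without replicate 2 the difference between the duplication genotypes was 0.25 (adjusted P = 0.00096). Mrap (chr16:90738207-90749785) lies 3.82 Mb from Dyrk1a, its exons share no bases with those of another annotated gene, and its count sums the RNA of all copies.

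Clic6, of the chloride intracellular channel family, had a like pattern with a smaller difference. Its log2 values were 6.30, 6.37, 6.36, 6.27 and 6.27 in the Dp1Tyb hearts, 6.23, 6.21, 6.09, 6.11 and 6.06 in the hearts labelled Dp1TybDyrk1a+/+/-, and 6.04 to 6.25 with a median of 6.16 in WT hearts. The Dp1Tyb hearts did not overlap either of the other groups. Their log2 fold change was 0.16 (SE 0.0359, adjusted P = 0.0125) against WT and 0.17 (SE 0.0414, adjusted P = 0.046) against the hearts labelled Dp1TybDyrk1a+/+/-, which differed from WT by -0.01 (95% confidence interval -0.08 to 0.07, adjusted P = 0.954). Within lanes 3, 6 and 7 the difference between the duplication genotypes was 0.09, 0.25 and 0.17. Unlike for Mrap, the call between these genotypes was fragile. It held in 10 of 28 other settings, with adjusted P-values from 0.0065 to 0.152, while the Mrap call held in 29 of 29, with adjusted P-values from 0.00012 to 0.0407. The Clic6 call was lost with lane as a covariate, with no filter, with centring, with quantile normalization and with only the hearts compared. It was also lost on leaving out any 1 of WT replicates 1, 2, 5, 7 and 8, of the 5 Dp1Tyb hearts, or of replicates 3, 4 and 5 of the hearts labelled Dp1TybDyrk1a+/+/-, and over all settings the difference was 0.1517 to 0.1953. Without replicate 2 of the latter the difference was 0.19 (adjusted P = 0.0339). Clic6 (chr16:92498147-92541241) lies 2.03 Mb from Dyrk1a, close to the other end of the stretch from Mrap.

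**Figure D3:**
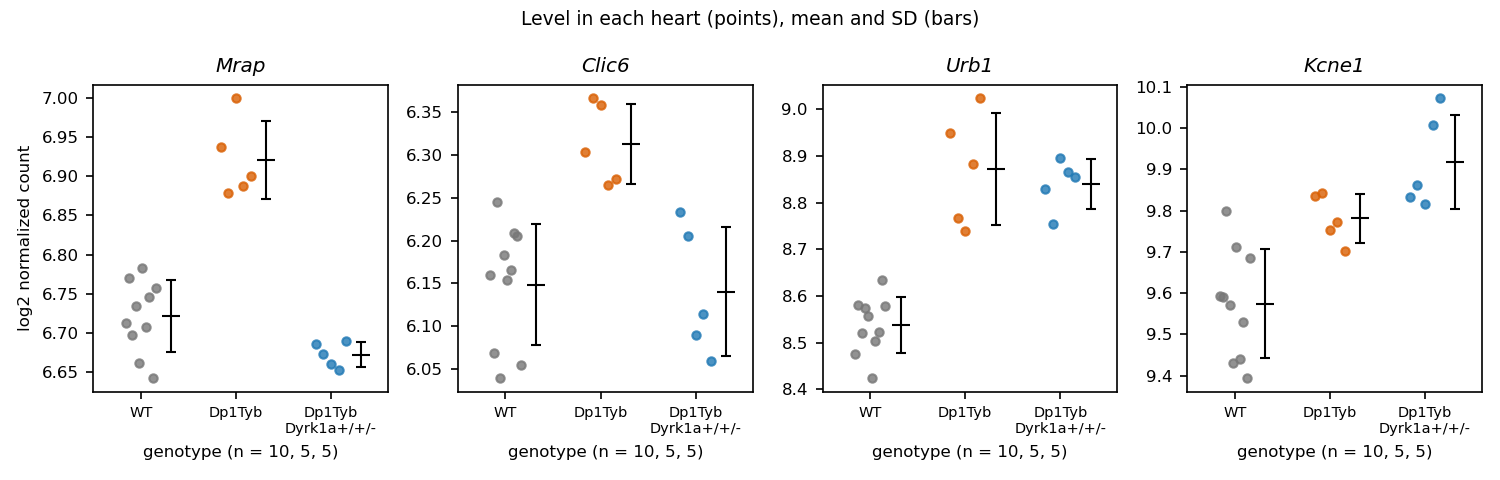
Log2 normalized count of Mrap, Clic6, Urb1 and Kcne1 in each heart, with the mean and SD of each genotype beside the points. The vertical axes differ and do not start at 0. Mrap and Clic6 passed the test against WT in Dp1Tyb hearts, Urb1, the neighbour of Mrap, in both duplication groups, and Kcne1 in those labelled Dp1TybDyrk1a+/+/-.

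The neighbours of Mrap were raised in both genotypes. Mis18a, on one side, had log2 fold changes of 0.22 in Dp1Tyb (adjusted P = 0.00309) and 0.20 in hearts labelled Dp1TybDyrk1a+/+/- (adjusted P = 0.00923), the latter 0.26 without replicate 2. Urb1, on the other, had 0.33 (adjusted P = 1.83e-05) and 0.30 (adjusted P = 8.06e-05). The other 22 tested genes had differences between the duplication genotypes from -0.14 to 0.08, with adjusted P-values of 0.148 or more, and the ends of their 95% confidence intervals ran from -0.28 to 0.20. Of these 22 intervals 19 held 0. The noncoding RNA A930006K02Rik was slightly higher in every Dp1Tyb heart than in every heart labelled Dp1TybDyrk1a+/+/-, by 0.04 with an adjusted P-value of 0.148, and with Mrap and Clic6 it made 3 genes whose hearts did not overlap in this direction, as was seen for 2.1% of all genes tested.

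Genes of the centromere, DNA replication and purine synthesis were increased in both genotypes, 3 of 3 in each. Mis18a is a subunit of the Mis18 complex, which licenses CENP-A loading, Donson takes part in assembling the replicative helicase, and Gart is the trifunctional enzyme of purine synthesis. Gart rose most, with log2 values of 10.97 to 11.05 in Dp1Tyb hearts against 10.47 to 10.68 in WT, a log2 fold change of 0.38 (SE 0.0441, adjusted P = 8.17e-06). In the hearts labelled Dp1TybDyrk1a+/+/- it was 11.07, 10.71, 11.08, 11.02 and 10.97, and the second of these, replicate 2, was the lowest. The change was 0.36 with this heart and 0.42 without it. Donson changed by 0.28 and 0.30 (0.34 without replicate 2), and 25.6% of its exon bases overlap Son on the opposite strand. Gart overlaps Son on the opposite strand in 7.55% of its exon bases. The strand setting of the counting is not given in the sources used here, so reads of Donson or Gart may not be separate from those of Son.

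Partners of these genes outside the duplication showed no such increase. In Dp1Tyb hearts the centromere protein gene Cenpn fell by 0.13 on the log2 scale (adjusted P = 0.0346), and among genes of replication Mcm10 fell by 0.13 (adjusted P = 0.00852) and Topbp1 by 0.10 (adjusted P = 0.0348). These were the only 3 called of 135 tested partner genes outside the duplication in 9 lists, or 2.22%, and all 3 were lower. Over all genes tested, duplicated ones included, 3.08% were called in either direction and 1.27% as lower. Of the 15209 genes tested outside the duplication, 205 were called higher and 194 lower. An unadjusted P-value under 0.05 was found for 24 partners and for 2302 of these 15209 genes. Against WT, 0 of the 135 were called in hearts labelled Dp1TybDyrk1a+/+/-. Of the 15209 genes outside the duplication 27 were called higher and 13 lower, and with duplicated genes included 0.712% were called. At an unadjusted P-value under 0.05 were 13 partners and 1393 of the 15209 genes. Between the duplication genotypes 0 were called, compared to 1.16% of all genes tested. Outside the duplication 63 of the 15209 genes were called higher in Dp1Tyb and 113 lower. For 37 partners and 2825 of the 15209 genes the unadjusted P-value was under 0.05. Mcm10, Topbp1 and Cenpn had adjusted P-values of 0.052, 0.0659 and 0.0911. Without replicate 2 of the hearts labelled Dp1TybDyrk1a+/+/-, 14 of all 136 tested partners were called in Dp1Tyb against WT, 8 of them lower, or 10.3% compared to 6.27% of all genes tested without it. Between the duplication genotypes 4 were called without it, all lower in Dp1Tyb, or 2.94% compared to 1.31% of all genes tested. Of the 12 tested purine synthesis enzymes other than Gart, 0 were called in any comparison.

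All 3 genes of RNA processing and ribosome biogenesis were increased in both genotypes. Son, a splicing cofactor of nuclear speckles and the most abundant of these genes by count, rose from 13.20 to 13.43 in WT hearts to 13.74, 13.63, 13.61, 13.67 and 13.79 in Dp1Tyb hearts and to 13.70, 13.86, 13.74, 13.76 and 13.79 in those labelled Dp1TybDyrk1a+/+/-. No heart of a duplication group overlapped WT. The log2 fold changes were 0.38 (SE 0.0361, adjusted P = 4.47e-07) and 0.46 (SE 0.0361, adjusted P = 1.8e-08), the latter 0.44 without replicate 2, and the difference of -0.08 between the genotypes had an adjusted P-value of 0.288. Paxbp1, which binds PAX3 and PAX7, changed by 0.31 and 0.35, and Urb1, a nucleolar factor of ribosome biogenesis, by 0.33 and 0.30. Its Dp1Tyb hearts were spread widely, from 8.74 to 9.02, and yet did not overlap WT hearts, which ran up to 8.63.

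The 4 genes listed under mitochondria were also increased in both genotypes. Atp5po, the oligomycin sensitivity subunit of the ATP synthase, had log2 values of 13.01, 13.05, 13.07, 13.08 and 13.09 in Dp1Tyb and 12.59 to 12.77 in WT, a log2 fold change of 0.35 (SE 0.0507, adjusted P = 0.000165). In the hearts labelled Dp1TybDyrk1a+/+/- it was 13.13, 12.77, 13.18, 13.21 and 13.18. Replicate 2 lay within the WT range and the other 4 above it, and the log2 fold change was 0.39 with it and 0.47 without it. Mrps6 changed by 0.35 and 0.38, Cryzl1, a quinone oxidoreductase-like protein, by 0.34 and 0.37 (0.44 without replicate 2), and Dnajc28, a J-domain protein, by 0.24 and 0.29. Among 18 other ATP synthase genes, 1 was called, Atp5pf, which is itself duplicated and rose by 0.39 (adjusted P = 7.89e-05) and 0.425 (adjusted P = 2.5e-05), and among 32 other genes of the small mitochondrial ribosome subunit, 0 were called in any comparison.

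Both endocytic genes were increased. Synj1, the phosphoinositide phosphatase that uncoats clathrin vesicles, had log2 values of 9.74 to 9.92 in Dp1Tyb, 9.87 to 10.01 in hearts labelled Dp1TybDyrk1a+/+/- and 9.44 to 9.55 in WT. Its log2 fold changes were 0.33 (SE 0.0275, adjusted P = 5.83e-08) and 0.41 (SE 0.0275, adjusted P = 1.82e-09), and in the other duplication group every heart was above 4 of the 5 Dp1Tyb hearts (difference -0.08, adjusted P = 0.18). Itsn1, a scaffold of clathrin-coated pits, changed by 0.30 and 0.29. In hearts labelled Dp1TybDyrk1a+/+/- it was 11.36, 11.60, 11.34, 11.32 and 11.30, with replicate 2 the highest, and the change was 0.24 without that heart. It starts head to head with Cryzl1, and in replicate 2 Cryzl1 lay 0.12 above the WT mean, below the rest of its group, while Itsn1 lay 0.51 above it, higher than the rest. Of the 36 other clathrin endocytosis genes tested, 0 were called in any comparison.

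Genes of ion channels and transport were less uniform, with 2 of 4 called in each genotype, Slc5a3 and Clic6 in Dp1Tyb and Slc5a3 and Kcne1 in those labelled Dp1TybDyrk1a+/+/-. Kcne1, or minK, is the accessory subunit with which KCNQ1 carries the slow delayed rectifier current. Its log2 values were 9.84, 9.84, 9.75, 9.77 and 9.70 in Dp1Tyb, 9.83, 9.86, 9.82, 10.01 and 10.07 in hearts labelled Dp1TybDyrk1a+/+/-, and 9.40 to 9.80 with a median of 9.58 in WT. Kcne1 had the largest SD of the 24 tested genes among WT hearts, 0.132, and 3 of 5 Dp1Tyb hearts lay within the WT range while 0 of 5 of the other group did. The log2 fold changes were 0.21 (SE 0.0581, adjusted P = 0.0568) and 0.34 (SE 0.0581, adjusted P = 0.00171). The difference between the duplication genotypes, -0.14 (95% confidence interval -0.28 to 0.00, adjusted P = 0.28), was not past the threshold, so the genotypes were not shown to differ. The Dp1Tyb change passed the threshold with lane as a covariate (adjusted P = 0.0492), with array weights (adjusted P = 0.0125) and with only the hearts compared (adjusted P = 0.0394), and without replicate 2 (adjusted P = 0.0368) or 5 of the other group or WT replicate 3 or 6. Kcne2 was close to the limit of the test, with changes of 0.04 and 0.04. Slc5a3 changed by 0.30 (adjusted P = 0.00143) and 0.23 (adjusted P = 0.0326), and the second of these calls was lost in 12 of 29 other settings (adjusted P-values from 0.0083 to 0.131 over all 29), among them leaving out any 1 of the 5 hearts of that genotype or of WT replicates 1, 2, 3, 7 and 8. Of 10 tested KCNE subunits and channel partners outside the stretch, 0 were called, and Kcnq1 had log2 fold changes of -0.06 (95% confidence interval -0.15 to 0.03) and 0.01 (95% confidence interval -0.08 to 0.09). Of 4 tested genes of inositol transport and synthesis, 0 were called.

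Among the other membrane and cilium genes, 5 of 5 were increased in Dp1Tyb and 3 of 5 in hearts labelled Dp1TybDyrk1a+/+/-. Tmem50b had the largest change in Dp1Tyb, with log2 values of 10.21, 10.20, 10.21, 10.20 and 10.23 against 9.69 to 9.91 in WT, and a log2 fold change of 0.41 (SE 0.029, adjusted P = 8.25e-09). In hearts labelled Dp1TybDyrk1a+/+/- it was 0.43 (adjusted P = 2.39e-09), and replicate 2 did not stand out. Cfap298, a dynein assembly factor of cilia, changed by 0.28 and 0.38 (0.42 without replicate 2), and noncoding genes on the opposite strand cover part of its exons. Smim11, which encodes a small membrane protein, changed by 0.23 and 0.31 (0.27 without replicate 2). Eva1c, a cell surface protein with lectin-like domains, was raised by 0.10 in Dp1Tyb (adjusted P = 0.0294) and had a value of 0.10 in the other genotype (adjusted P = 0.0578), on either side of the threshold with the same size. The Dp1Tyb call was lost with no filter and without any 1 of Dp1Tyb replicates 1, 3, 4 and 5 or WT replicate 8. The other value passed with centring, quantile normalization, array weights or lane as a covariate, and without WT replicate 1 or 7.

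Runx1 had log2 fold changes of 0.095 (95% confidence interval -0.02 to 0.21, adjusted P = 0.44) and 0.10 (95% confidence interval -0.01 to 0.22, adjusted P = 0.569), with hearts that overlapped WT hearts in both genotypes. Its level was low, at a mean normalized count of 101, and its WT values ran from 6.44 to 6.87, with replicate 9 the highest. Without replicate 2 of the hearts labelled Dp1TybDyrk1a+/+/-, their value was 0.05 (adjusted P = 0.712). Its cofactor gene Cbfb, outside the duplication, had values of -0.002 and 0.025, and 0 of 2 tested RUNX partners were called. The remaining gene, Gm21970, is annotated as a readthrough transcript, and 100% of its exon bases belong to Ifnar2 (30.4%) and Il10rb (69.6%) on the same strand. Its changes of 0.27 (adjusted P = 0.00418) and 0.19 (adjusted P = 0.129) are therefore uncertain. Mrps6 and Slc5a3 share 404 exon bases on the same strand, 12.6% of those of Mrps6.

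**Figure D4:**
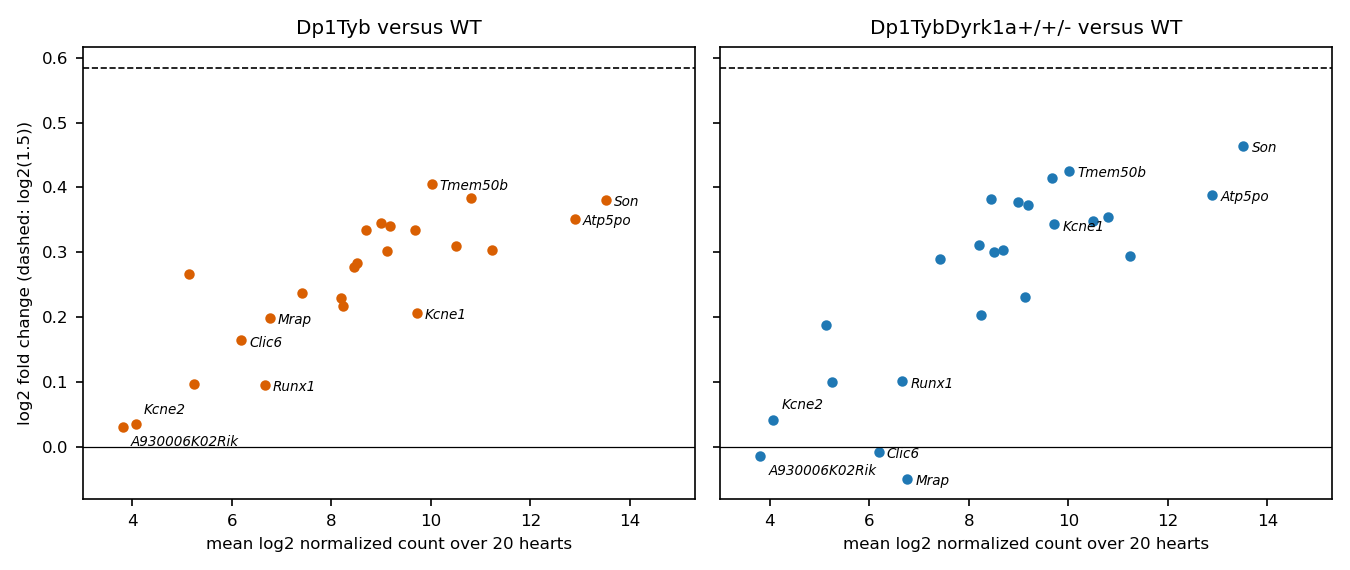
Log2 fold change against WT of the 24 tested genes by their mean log2 normalized count over all 20 hearts, for Dp1Tyb and for Dp1TybDyrk1a+/+/- hearts. The dashed line is log2(1.5), 0.585. Changes were small for genes of low level, and Mrap and Clic6 had changes of 0.20 and 0.16 in the former and of -0.05 and -0.01 in the latter.

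Replicate 2 of the hearts labelled Dp1TybDyrk1a+/+/- deviated at many of these genes and not in one direction. It lay outside the range of the other 4 hearts of its group at 15 of 24 genes. It was below them at 8, Atp5po, Gart, Cryzl1, Mis18a, Donson, Cfap298, Urb1 and Mrps6, and above them at 7, Itsn1, Runx1, Smim11, Synj1, Son, Gm21970 and Slc5a3. Its mean over the 24 genes relative to WT was 0.23, near the 0.26 to 0.27 of the other 4. The summed level of its fibroblast and cushion markers, 16.61, was above the 15.95 to 16.3 of the other 4 hearts, and of 11 marker lists 9 were above the other 4 hearts, 1 was below and 1 was within their range. For glia and neuron it was 8.95 against 8.58 to 8.72, with WT hearts at 8.62 to 8.93. For lung and foregut it was 7.39 against 6.8 to 7.13, and within the WT range of 6.82 to 7.77. Of the 11 lists, 5 were above every WT heart. The part of these cell and tissue types in the values of this heart was not tested. Mrap and Clic6 were within the range of the other 4.

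**Figure D5:**
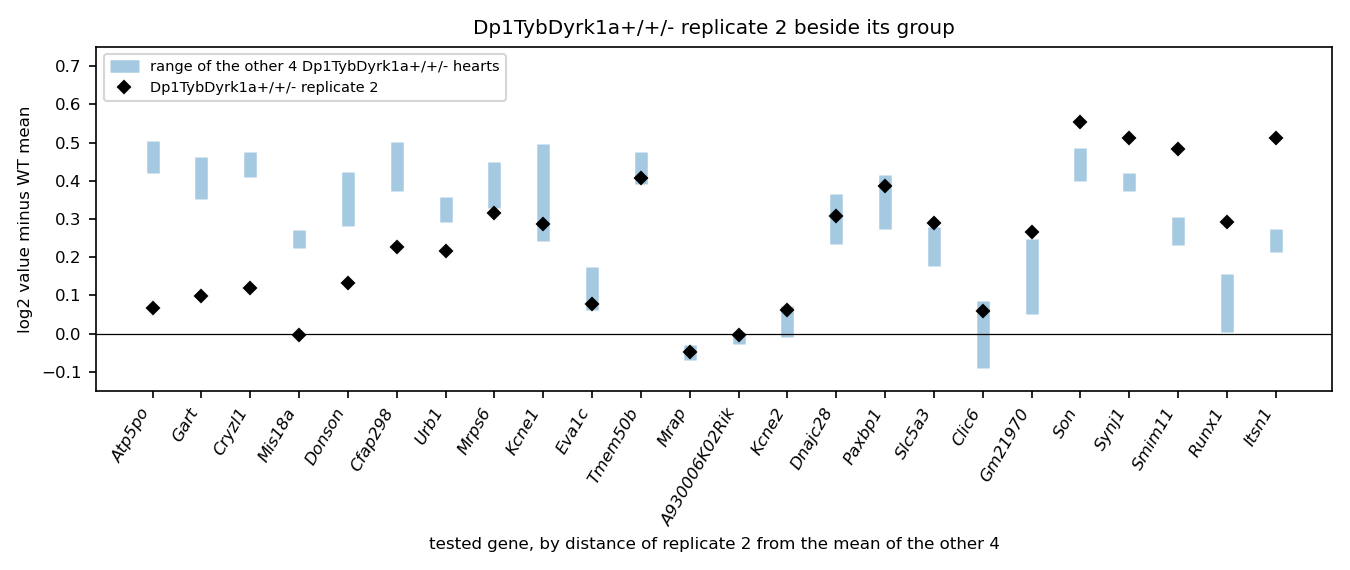
Log2 value minus the WT mean in replicate 2 of the hearts labelled Dp1TybDyrk1a+/+/- (diamonds) and the range of the other 4 hearts of that group (bars), for the 24 tested genes, ordered by the distance of replicate 2 from the mean of the others. Atp5po, Gart, Cryzl1 and Mis18a lay far below the range and Itsn1, Runx1 and Smim11 far above it.

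The gain was also present within each sequencing lane, as given by the sample titles. Within lanes 3, 6 and 7, the median difference of the 24 genes between Dp1Tyb and WT hearts was 0.296, 0.275 and 0.242, with 24 of 24 genes above 0 in each lane. For the hearts labelled Dp1TybDyrk1a+/+/- it was 0.272, 0.323 and 0.287, with 22, 21 and 23 genes above 0, and lane 7 held 3 of these 5 hearts, replicate 2 among them, and 2 WT hearts.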

How the data were processed

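RNA-seq libraries made with the KAPA mRNA HyperPrep kit from 20 mouse hearts at E13.5 were analysed. The submitters' processing notes name Trimmomatic 0.36, STAR 2.5.2a, RSEM 1.2.31, DESeq, DESeq2 and GRCm38. The authors deposited a table of log2 normalized counts, a log2 scale whose spread shrinks at low values. The exact transformation is not given in the sources used here. It holds no counts, so the depth is unknown, and no counting interval is given.

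From these values, limma 3.58.1 in R 4.3.3 was fitted with a mean per genotype over all 20 hearts and an intensity trend, for the 15304 genes whose mean of 2 to the power of the deposited value was at least 10. P-values were adjusted over all of these by the Benjamini-Hochberg method, with a threshold of 0.05. They measure the spread between hearts, and replicate numbers follow accession order and are only names. Each tested gene of the stretch is named with its values, in groups by role, and of the partner lists up to 3 genes per list that passed the threshold. The genes and lists were chosen with earlier results of these data known. In a test on simulated data for Dp1Tyb versus WT with 15304 genes, 187 of 200 genes shifted by 0.3 were recovered and 4 others were called. The simulated noise was independent between genes and held no heart that stood apart. These counts therefore do not show how the test behaves with such a heart. Positions and upstream sequences are RefSeq, GRCm38.p6, and gene order and exon overlaps are GENCODE M39. No upstream sequence was used for Mrap, Clic6, Kcne1 and Gm21970. Alternatives were other filters, centring, quantile normalization, array weights, no trend, lane as a covariate, only the hearts compared, and leaving out each heart.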

Additional observations from a re-analysis of the deposited data

Results flagged for a closer look

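Mrap and Clic6 stand here because their changes against WT differed between Dp1Tyb hearts and those labelled Dp1TybDyrk1a+/+/-, by 0.25 and 0.17 on the log2 scale in a test of the difference itself (limma, adjusted P = 0.000523 and 0.046). Both comparisons share their WT hearts.

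A single heart lay far from the rest of its group (Dixon's test) for 9 of 72 pairs of a tested gene and a genotype, where chance gives about 1 in 20, or 3.6 of 72. Of these 9, 4 were of replicate 2 of the hearts labelled Dp1TybDyrk1a+/+/-. Its log2 value was 8.13 for Mis18a (others 8.36 to 8.41), 9.12 for Cryzl1 (others 9.41 to 9.48), 11.6 for Itsn1 (others 11.3 to 11.36) and 12.77 for Atp5po (others 13.13 to 13.21). In WT replicate 6 they were 10.47 for Gart (others 10.61 to 10.68), 11.2 for Itsn1 (others 11.04 to 11.11), 8.72 for Slc5a3 (others 8.92 to 9.09) and 8.22 for Smim11 (others 7.97 to 8.1). In WT replicate 9, Runx1 was at 6.87 (others 6.44 to 6.64).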

How the results depend on the processing

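Without single hearts, the number of increased genes ranged from 18 to 21 in Dp1Tyb and from 15 to 17 in hearts labelled Dp1TybDyrk1a+/+/-, the number called between them from 1 to 2, and the medians from 0.2619 to 0.2919, 0.2971 to 0.3084 and -0.0332 to -0.0068. All 24 intervals stayed below log2(1.5) in both comparisons with WT. Partner calls ranged from 2 to 14, 1 to 2 and 0 to 7. They fell to 2 in Dp1Tyb without WT replicate 3 or 8 or Dp1Tyb replicate 1 or 3, and rose to 7 between the duplication genotypes without WT replicate 6 and to 14, 2 and 4 without replicate 2 of the hearts labelled Dp1TybDyrk1a+/+/-. With a minimum count of 100 the medians were 0.3027, 0.3433 and -0.0322, with 1 gene and 3 partners called between the duplication genotypes. With no filter the medians were 0.1303 and 0.0713, 40 intervals of 40 genes lay below log2(1.5) in each comparison with WT, 2 partners were called in Dp1Tyb and 1 gene between the duplication genotypes. Array weights gave 21, 4 and 20 partners, and 4 genes, Cfap298 among them, with a median of -0.0357 between the duplication genotypes. With only the hearts compared, 10 partners were called in Dp1Tyb and 1 gene between the duplication genotypes. Centring each heart on its median gave 1 gene, a median of -0.0242 and 4 partners there, and quantile normalization and lane as a covariate gave 1 gene. Without the trend 2 partners were called between the duplication genotypes. The fit shares a residual spread per gene over all 20 hearts, so each heart also enters the error of comparisons without its genotype. Without replicate 2 of the hearts labelled Dp1TybDyrk1a+/+/-, Atp5po stayed at 0.3508 in Dp1Tyb against WT. Its limma adjusted P-value went from 0.000165 to 6.32e-09, and the genes called there from 471 to 959. The causes of the other shifts were not tested. Clic6 in hearts labelled Dp1TybDyrk1a+/+/- turned from -0.01 to 0.001 with quantile normalization, and ranged from -0.0314 to 0.0122 without single hearts, above 0 without WT replicate 3 or replicates 3 or 5 of its own group. Calls were also lost for Mis18a in that genotype without its replicate 3 (adjusted P = 0.0542), for Clic6 in Dp1Tyb without replicate 3 (adjusted P = 0.0512) and for Eva1c in Dp1Tyb in 6 of 28 settings. No paired analysis was possible because the labels give no shared replicate numbers or litters. Levels per kilobase moved beyond the spread for 20 of 24 genes with the longest transcript as the length.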
